A study of Rattus norvegicus with 99 samples.

Results

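Hs3st2, Crtac1, Pcp4 and Phyhipl are 4 genes of low abundance in rat heart that were chosen because their read counts were much higher in failing than in sham hearts after aortic banding. They are 4 of the 17337 genes of the deposited whole-heart table, and all 4 passed the filter on low counts in every chamber. That filter can be passed through the banded libraries alone. The genes were selected on the comparison of AOB-F with Sham-LF, Hs3st2 and Crtac1 in the left ventricle (LV) and Pcp4 and Phyhipl in the interventricular septum (Spt), so those comparisons are given below as a description without a test. The questions that could be tested were whether the genes were raised in the right ventricle (RV) as well, whether heart failure after pulmonary artery banding showed them too, whether they were raised before failure, and whether they rose together in the same animals.

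All animals were male F1 offspring of Wistar Kyoto females and Lewis males. A clip around the pulmonary artery (PAB, load on the RV) or the aorta (AOB, load on the LV) tightened in effect as the animal grew, and sham animals had surgery without lasting constriction. At the compensated stage (H), 7 Sham-H, 7 PAB-H and 7 AOB-H animals were taken at an age of 11 weeks, 7 weeks after surgery. At the failing stage (F), 3 PAB-F and 2 Sham-RF animals were taken at 27 weeks, 21 weeks after surgery, and 4 AOB-F and 3 Sham-LF animals at 30 weeks, 24 weeks after surgery. The ages follow the labels of the samples, and the text of the study gives others. Each of the 33 animals gave 1 library of polyadenylated RNA from LV, Spt and RV, 99 libraries in all with total counts of 12057180 to 24197244 reads. The tissue is whole chamber wall, in which fewer cells of a type and less RNA per cell cannot be told apart.

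Some libraries call for care. In 3 animals (AOB-H replicate 1, PAB-H replicate 2 and Sham-H replicate 6) the RV minus LV difference over 50 chamber genes ran opposite to that of the other animals, with ratios to the median of -1.33, -1.03 and -0.91. The next lowest animal, PAB-F replicate 2, stood at 0.19. The log2 fold changes of Hs3st2 and Phyhipl at the compensated stage are therefore given with and without those animals. For AOB-F replicates 1 and 2 the order of the septal columns in the sample list of the study is reversed, so that the link between Spt and ventricles of those animals is uncertain. The label of Sham-LF replicate 1 in RV carries a description of the other older sham, and its title and age were followed.

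Hs3st2 encodes a heparan sulfate 3-O-sulfotransferase, an enzyme that adds a sulfate group to glucosamine units of heparan sulfate chains and so shapes what those chains bind. It is best known from brain. Crtac1 encodes cartilage acidic protein 1, a secreted protein of cartilage and brain that can act as an antagonist of the Nogo receptor. Pcp4 encodes PEP-19, a small IQ-motif protein that speeds the exchange of calcium on calmodulin and is known from Purkinje neurons of the cerebellum and from the Purkinje fibres of the heart. Phyhipl encodes a relative of the protein that binds phytanoyl-CoA hydroxylase, and its function is poorly known. None of the 4 is a classical gene of the cardiac load response, for which Nppa and Nppb, the natriuretic peptide genes, stand as references below.

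The sequences upstream of Hs3st2 and Phyhipl are shown because their levels were the most closely related among the 4 genes and because they were the 2 genes with the largest log2 fold changes upon PAB-F in RV. They are the 250 bases before the transcript start used in the RefSeq promoter table of the GRCr8 assembly, a different build from the one to which the reads were mapped. For Hs3st2 the annotated gene starts earlier, at position 185387445, so that the last printed bases lie inside the gene. Capitals mark matches on either strand to any of 8 motifs, namely the TATA box (TATAAA), the GC box (GGGCGG), the cyclic AMP response element (TGACGTCA), the AP-1 site (TGANTCA), the E-box (CACGTG), the GATA site (AGATAA), the TEAD site (GGAATG) and the MEF2 site. Hs3st2 is read from chr1:185387213-185387462 and Phyhipl, the first of its 2 entries, from chr20:18023581-18023830, both on the plus strand.
Hs3st2: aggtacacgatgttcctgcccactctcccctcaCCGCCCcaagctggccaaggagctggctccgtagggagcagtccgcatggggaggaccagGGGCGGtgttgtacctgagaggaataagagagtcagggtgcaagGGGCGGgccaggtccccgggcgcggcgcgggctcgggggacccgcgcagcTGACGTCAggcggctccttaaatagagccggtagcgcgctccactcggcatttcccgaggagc
Phyhipl: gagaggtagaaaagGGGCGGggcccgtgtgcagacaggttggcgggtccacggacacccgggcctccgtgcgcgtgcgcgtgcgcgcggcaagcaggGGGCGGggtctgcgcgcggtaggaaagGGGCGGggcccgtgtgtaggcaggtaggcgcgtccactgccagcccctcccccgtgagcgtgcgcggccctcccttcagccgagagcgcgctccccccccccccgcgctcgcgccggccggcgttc

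The Hs3st2 window held a full cyclic AMP response element 63 bases before the start of the table, upstream of the annotated gene, a motif found in 1.59% of the 33469 windows of this length. It also held 3 GC boxes, the motif that was found 3 times in the Phyhipl window and in 30.5% of all windows. The windows of Crtac1 (chr1:251182690-251182939, minus strand) and Pcp4 (chr11:49269936-49270185, plus strand) lie largely or wholly inside the annotated span of their gene, and their sequence is not printed. Crtac1 held a TATA box 62 bases and a GC box 39 bases before its start, and a TATA box was found in 12.9% of all windows. Pcp4 held a TEAD site 227 bases before its start (12.1% of all windows). The second Phyhipl window (chr20:18030632-18030881, plus strand), which lies inside the gene, held 2 TATA boxes, 159 and 248 bases before its start, and a MEF2 site 240 bases before it (3.41% of all windows). No match to the AP-1, E-box or GATA motif, with shares of 6.34%, 5.59% and 10.3% of all windows, was found in any of these windows. No motif was present for all 4 genes. The share of G and C bases was 67.6% for Hs3st2, 76.8% for Phyhipl, 73.2% for Crtac1 and 52.4% for Pcp4, against a median of 51.2% over all windows. A match describes letters only.

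In sham hearts the 4 genes were near the limit of detection. Over the 36 sham libraries of all chambers, Hs3st2 had 0 to 9 reads with a median of 1.5, and was at 0 in 6 libraries. Crtac1 had 0 to 11 reads with a median of 5, Phyhipl 0 to 15 with a median of 4.5, and Pcp4 1 to 12 with a median of 6. On the FPKM scale, which takes gene length into account, the median level in shams was highest for Pcp4 (0.522), followed by Phyhipl (0.192), Crtac1 (0.107) and Hs3st2 (0.038). The genes were thus low in abundance, with reads of each gene present in most sham libraries. For Hs3st2, 24 of the 36 sham libraries had 1 to 3 reads, too few to say whether the gene was off.

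Upon AOB-F in LV, where Hs3st2 and Crtac1 were chosen, all 4 genes were higher on average than in Sham-LF, and AOB-F replicates 1 and 4 carried the highest levels. CPM denotes the counts of a gene relative to the TMM-scaled size of its library. Hs3st2 was at 19.3, 3.71, 1.31 and 9.24 CPM in AOB-F replicates 1 to 4, against 0.28, 0.07 and 0.30 CPM in the 3 Sham-LF animals. Every AOB-F library lay above every sham, and the lowest still had 21 reads where the shams had 1 to 5. Crtac1 was at 9.93, 0.74, 0.87 and 9.45 CPM in AOB-F and at 0.17, 0.49 and 0.47 CPM in Sham-LF. Here replicates 1 and 4 were far above the shams and replicates 2 and 3 only just above them. Pcp4 was at 5.24, 0.62, 0.44 and 3.61 CPM against 0.34, 0.49 and 0.53 CPM, so that replicate 3 lay within the sham range. Phyhipl was at 11.3, 3.47, 1.68 and 4.10 CPM against 0.84, 0.35 and 0.65 CPM, without overlap. The fitted log2 fold changes (± SE, n = 4 and 3) were 5.19 ± 0.95 for Hs3st2, 3.78 ± 0.76 for Crtac1, 2.41 ± 0.57 for Pcp4 and 3.02 ± 0.66 for Phyhipl. In this comparison 5.85% of all 11703 tested genes had all AOB-F libraries above all shams. As these values chose the genes, nothing is read from them.

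In Spt, where Pcp4 and Phyhipl were chosen, the highest libraries were those labelled AOB-F replicates 1 and 3. Pcp4 was at 8.85, 0.65, 15.3 and 0.68 CPM in AOB-F against 0.39, 0.26 and 0.62 CPM in Sham-LF. Replicates 2 and 4 lay just above the highest sham. Phyhipl was at 5.68, 1.96, 4.33 and 1.57 CPM against 0.46, 0.18 and 0.25 CPM, and here all 4 AOB-F libraries were well above the shams. Hs3st2 was at 7.93, 1.41, 6.60 and 1.42 CPM against 0.59, 0 and 0.25 CPM. Crtac1 was at 8.92, 1.11, 12.8 and 0.63 CPM against 0.39, 0.44 and 0.37 CPM, so that all 4 genes had the same pair of high libraries. The fitted log2 fold changes were 3.81 ± 0.95 for Hs3st2, 3.84 ± 0.91 for Crtac1, 3.82 ± 0.81 for Pcp4 and 3.44 ± 0.73 for Phyhipl, and 4.3% of all 11624 tested genes had no overlap in this direction. Again these values are a description.

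**Figure D1:**
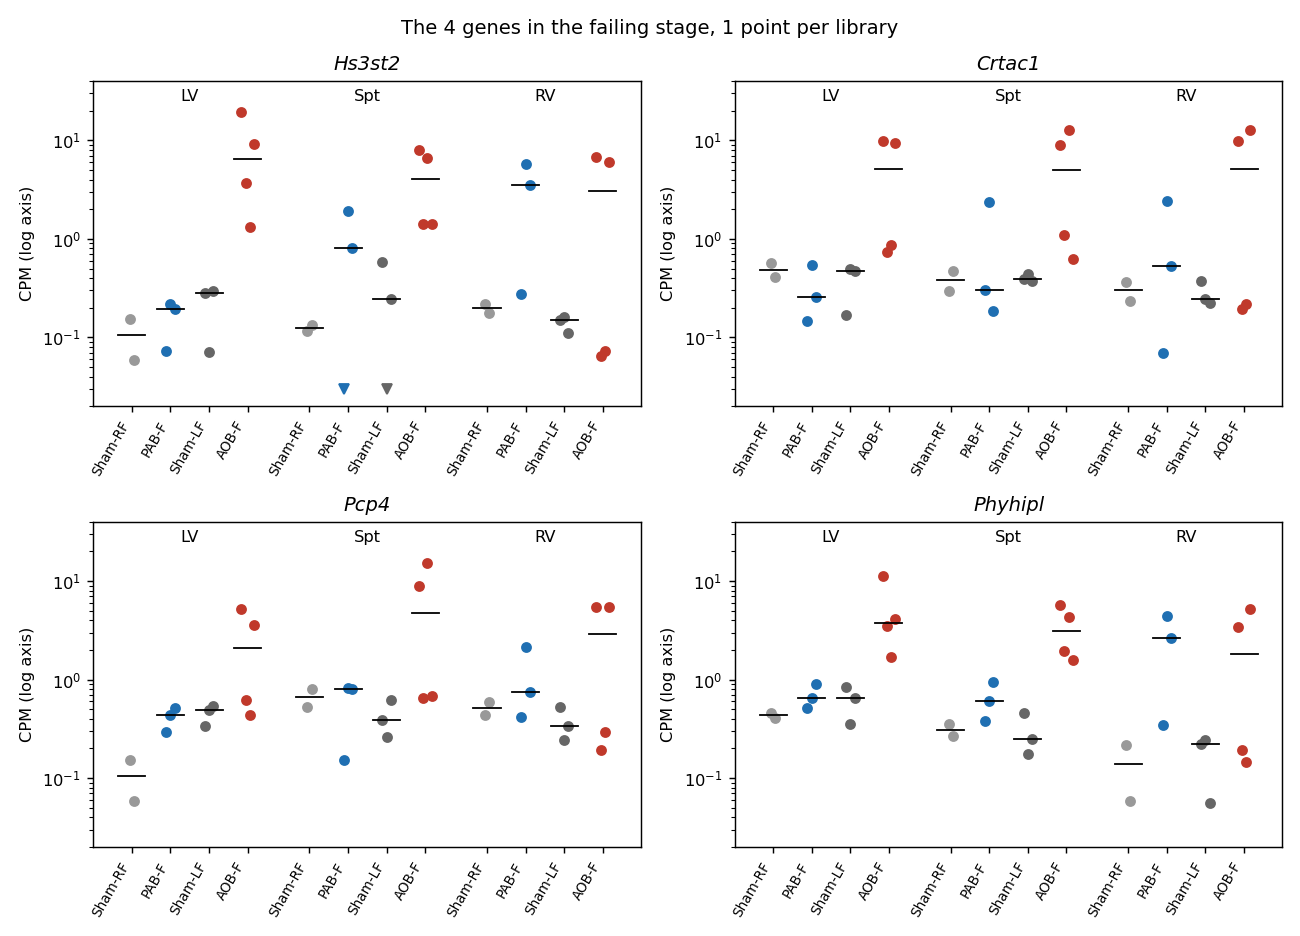
CPM of each gene in every library of the failing stage (log axis), by chamber (LV, Spt, RV) and condition; points are libraries, triangles at the lower edge are libraries with 0 reads, and black lines are medians. In RV, AOB-F splits into 2 libraries above 3 CPM and 2 libraries at sham level for each gene, and the PAB-F libraries of Hs3st2 and Phyhipl lie above those of Sham-RF.

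The RV libraries of AOB-F and Sham-LF were not used to choose the genes. They come from the same animals whose LV and Spt were used, so RV is not independent of that choice. In RV each of the 4 genes was high in the same 2 of 4 AOB-F animals. Hs3st2 was at 6.72, 0.06, 0.07 and 6.09 CPM in AOB-F replicates 1 to 4 (104, 1, 1 and 79 reads), and at 0.15, 0.16 and 0.11 CPM in Sham-LF (2 reads each). Crtac1 was at 9.95, 0.19, 0.22 and 12.7 CPM against 0.37, 0.24 and 0.22 CPM. Replicates 1 and 4, which were also highest in LV, were thus far above the shams, while replicates 2 and 3 were at or below them. Pcp4 was at 5.49, 0.19, 0.29 and 5.48 CPM against 0.52, 0.24 and 0.34 CPM. Phyhipl was at 3.42, 0.19, 0.15 and 5.17 CPM against 0.22, 0.24 and 0.06 CPM. The groups overlapped for each gene, because of replicates 2 and 3, whereas 5.84% of all genes tested had every AOB-F library above every sham.

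The fitted log2 fold changes in RV were 4.48 ± 1.46 for Hs3st2, 4.34 ± 1.19 for Crtac1, 2.93 ± 0.85 for Pcp4 and 3.70 ± 1.275 for Phyhipl (SE, n = 4 and 3). The unadjusted p of edgeR's quasi-likelihood test were 0.0047, 0.0010, 0.0017 and 0.0069. After Benjamini-Hochberg adjustment over the 11734 genes tested in RV, the edgeR adjusted p was 0.328 for Hs3st2, Crtac1 and Pcp4 and 0.332 for Phyhipl, and none of the 4 passed 0.05. Of all genes tested 0% passed in this comparison, DESeq2's Wald test called 0 of the 4 genes, and 6.91% of all genes were higher at an unadjusted p under 0.05, the 4 genes among them. Leaving out 1 library at a time kept the log2 fold changes between 3.82 and 4.88 for Hs3st2 and between 2.39 and 3.32 for Pcp4. Each of these fits still held at least 1 of the high AOB-F replicates 1 and 4. In pooled reads, the ratio of AOB-F to Sham-LF in RV was 23.3 (10.5 to 64.4) for Hs3st2 and 13.5 (6.37 to 34.3) for Phyhipl (exact binomial 95% intervals, which cover counting error only and not the spread between animals).

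In failure upon PAB, Hs3st2 and Phyhipl were high in the loaded RV of 2 of 3 animals, although no adjusted test was passed. The study lists Hs3st2 among the genes it found regulated upon PAB in isolated RV cardiomyocytes, a different kind of sample. That list joins the compensated and the failing stage. Hs3st2 was at 0.28, 5.81 and 3.56 CPM in PAB-F replicates 1 to 3 (4, 96 and 67 reads) and at 0.22 and 0.18 CPM in Sham-RF (3 reads each). Phyhipl was at 0.34, 4.42 and 2.66 CPM (5, 73 and 50 reads) against 0.22 and 0.06 CPM (3 and 1 reads). All PAB-F libraries were above both shams for these genes, but replicate 1 exceeded them by only 1 or 2 reads. Crtac1 was at 0.07, 2.42 and 0.53 CPM against 0.37 and 0.23 CPM. Pcp4 was at 0.41, 2.12 and 0.74 CPM against 0.44 and 0.59 CPM. For Crtac1 and Pcp4, replicate 2 stood above the shams, replicate 3 slightly so, and replicate 1 lay below them.

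The fitted log2 fold changes of PAB-F in RV were 4.00 ± 1.66 for Hs3st2 (adjusted p = 0.543), 1.75 ± 1.46 for Crtac1 (adjusted p = 0.745), 1.07 ± 0.98 for Pcp4 (adjusted p = 0.762) and 4.17 ± 1.57 for Phyhipl (adjusted p = 0.524), by edgeR with n = 3 and 2. None passed the adjusted threshold, 0 of 4 also with DESeq2's Wald test, as did 0% of all genes, and 4% of all genes were higher at an unadjusted p under 0.05, among them Hs3st2 and Phyhipl. In this comparison 17% of all genes had every PAB-F library above both shams, as Hs3st2 and Phyhipl did. Without replicate 3, whose RV also had 1024.7 CPM of the atrial myosin gene Myl7 against 2.12 and 31.0 CPM in replicates 2 and 1, the log2 fold changes of Hs3st2 and Phyhipl were 3.93 and 4.13. Without replicate 2, those of Hs3st2 and Phyhipl were 3.29 and 3.49, and those of Crtac1 and Pcp4 were 0.12 and 0.19. The pooled reads gave a ratio of PAB-F to Sham-RF of 17.1 (7.71 to 47.4) for Hs3st2, 19.7 (7.51 to 73.5) for Phyhipl, 3.49 (1.7 to 8.07) for Crtac1 and 2.12 (1.2 to 3.96) for Pcp4.

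In the other chambers upon PAB-F the levels were lower than in RV. In Spt, Hs3st2 was at 0, 1.92 and 0.81 CPM against 0.12 and 0.13 CPM in Sham-RF, and its log2 fold change was 2.88 ± 1.49 (edgeR adjusted p = 0.816). Crtac1 was at 0.31, 2.36 and 0.19 CPM against 0.29 and 0.47 CPM, which left replicate 2 as the high library as in RV. Phyhipl was at 0.38, 0.60 and 0.93 CPM against 0.35 and 0.27 CPM, and Pcp4 at 0.15, 0.82 and 0.81 CPM against 0.53 and 0.80 CPM. Without replicate 2, the log2 fold change of Crtac1 in Spt turned from 1.40 to -0.63. In this comparison 21.7% of all genes had no overlap in the direction of PAB-F, and Phyhipl was the only one of the 4 genes without overlap. In the LV, on which PAB places no pressure load, the highest PAB-F library of any of the 4 genes had 0.90 CPM. The log2 fold changes there were 0.58 ± 1.67 for Hs3st2, -0.57 ± 1.00 for Crtac1, 1.87 ± 0.97 for Pcp4 and 0.65 ± 0.88 for Phyhipl, all with an edgeR adjusted p of 1.00. Pcp4 and Phyhipl had no overlap, as did 7.82% of all genes. For Pcp4 the shams had 3 and 1 reads, and the ratio of pooled reads was 3.84 (1.29 to 15.4).

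A direct comparison of both kinds of failure was possible in RV. The response to AOB-F exceeded that to PAB-F by a log2 difference of 2.59 ± 2.00 for Crtac1 and 1.86 ± 1.31 for Pcp4, and differed by 0.48 ± 2.39 for Hs3st2 and -0.46 ± 2.25 for Phyhipl. None of these differences passed (edgeR adjusted p = 1.00 for each, with 0% of all genes past the threshold and 1.96% higher at an unadjusted p under 0.05). With standard errors of 1.31 to 2.39 on the log2 scale, back-calculated from the test, a several-fold difference in either direction could have been missed with these animals. The response to PAB at failure was also compared with that at the compensated stage. In RV the log2 difference was 2.07 ± 2.66 for Hs3st2, 1.17 ± 1.83 for Crtac1, 1.66 ± 1.19 for Pcp4 and 2.41 ± 1.91 for Phyhipl, with an edgeR adjusted p of 1.00 for each and 0% of all genes past the threshold.

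**Figure D2:**
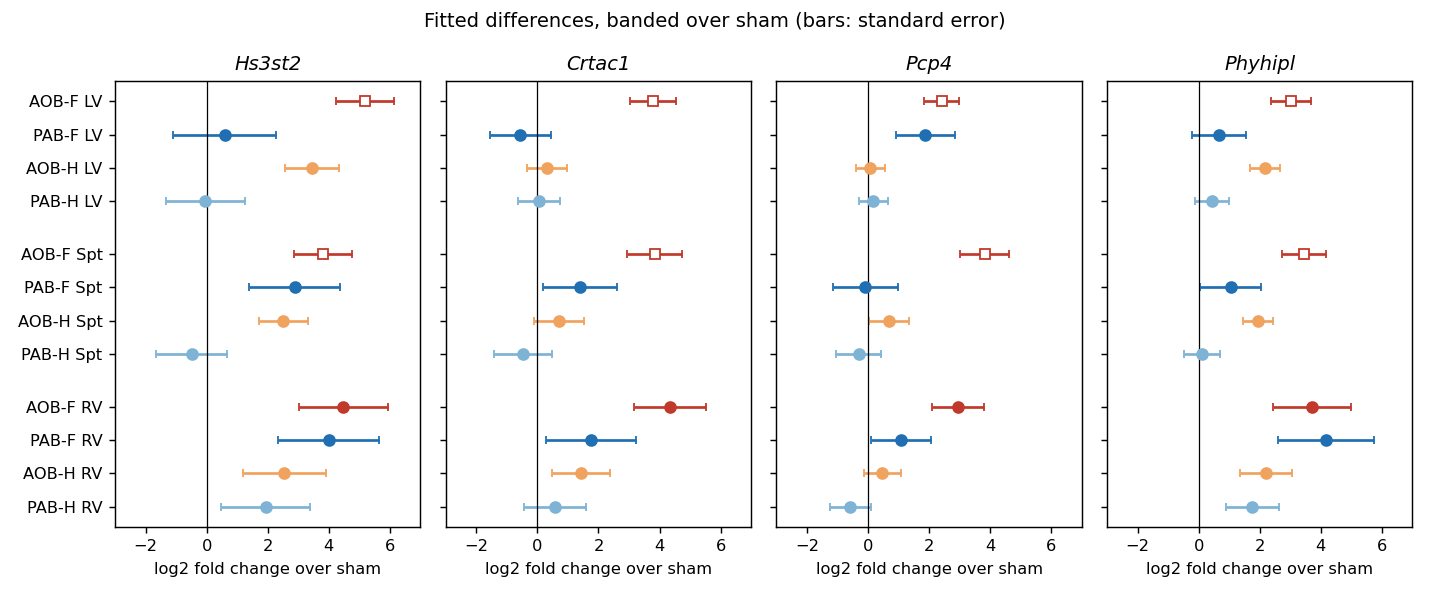
Fitted log2 fold change over the matching shams (horizontal axis) with its standard error, for each gene, chamber and kind of banding; open squares are the AOB-F comparisons in LV and Spt that chose the genes, and filled circles are comparisons that did not. Hs3st2 and Phyhipl lie right of 0 in RV upon both kinds of failure, at 4.48 and 4.00 and at 3.70 and 4.17.

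At the compensated stage Hs3st2 and Phyhipl were higher in AOB-H than in Sham-H in LV and Spt, although the adjusted test was not passed, whereas the log2 fold changes of Crtac1 and Pcp4 were below 1 in both chambers. Whether the genes differed from each other was not tested. In LV, Phyhipl had a lowest, median and highest level of 0.52, 1.25 and 4.69 CPM in AOB-H and of 0.10, 0.35 and 0.62 CPM in Sham-H. In 6 of 7 AOB-H animals it lay above every Sham-H animal. Hs3st2 in LV had a lowest, median and highest level of 0.04, 0.44 and 2.89 CPM in AOB-H and of 0, 0.06 and 0.13 CPM in Sham-H, and lay above every sham in 5 of 7 animals. The log2 fold changes were 2.17 ± 0.49 for Phyhipl and 3.45 ± 0.88 for Hs3st2, both with an edgeR adjusted p of 0.709, and 0% of all genes passed in this comparison while 2.2% were higher at an unadjusted p under 0.05, both of these genes among them. AOB-H replicate 3 was the highest library for both. Without it the log2 fold changes were 1.58 for Phyhipl and 2.36 for Hs3st2, and without the 3 animals of doubtful ventricle labels they were 2.05 and 3.49. Crtac1 (0.31 ± 0.67) and Pcp4 (0.08 ± 0.48) stayed within their standard errors. DESeq2's Wald test gave adjusted p of 0.077 for Phyhipl and 0.093 for Hs3st2. The labels give library numbers in 3 runs, called library series here, and within series 1, 2 and 3 the log2 fold change of Phyhipl in LV was 2.201, 2.70 and 0.70. The Sham-H libraries had at most 2 reads of Hs3st2 in LV, and the ratio of pooled reads was 11.8 (5.5 to 30.3).

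In Spt, Phyhipl was at 0.25, 1.01 and 3.78 CPM (lowest, median, highest) in AOB-H against 0.14, 0.32 and 0.59 CPM in Sham-H, and 5 of 7 AOB-H animals were above every sham. Its log2 fold change of 1.93 ± 0.49 had an edgeR adjusted p of 0.187, and DESeq2's Wald test gave an adjusted p of 0.045, the only call that this test made for the 4 genes in the comparisons tested. The share of all genes that the Wald test called there is not given here, so the call is a description only. Hs3st2 differed by 2.499 ± 0.80 on the log2 scale (edgeR adjusted p = 0.224), with 4 of 7 animals above every sham. By edgeR 0% of all genes passed the adjusted threshold and 5.65% of all genes were higher at an unadjusted p under 0.05, these genes among them. Both values were smaller without the 3 doubtful animals, at 1.44 for Phyhipl and 2.198 for Hs3st2. For Crtac1 the log2 fold change was 0.69 ± 0.82 and for Pcp4 0.68 ± 0.66.

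In RV upon AOB-H, 1 animal carried most of the difference. The library labelled AOB-H replicate 1 in RV had 1.76 CPM of Hs3st2, 1.95 CPM of Crtac1, 1.26 CPM of Pcp4 and 3.14 CPM of Phyhipl, the highest of the group for each gene. This is an animal of doubtful ventricle labels, and its library labelled LV had 0.50, 0.06, 0.43 and 1.24 CPM. The log2 fold changes of 2.53 ± 1.36 for Hs3st2 and 2.19 ± 0.85 for Phyhipl in RV (edgeR adjusted p = 1.00) became 0.46 and 1.29 without the 3 doubtful animals, and that of Crtac1 fell from 1.42 to 0.31. Of all genes 0% passed the adjusted threshold and 0.597% of all genes were higher at an unadjusted p under 0.05, among them Phyhipl with all animals.

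Upon PAB-H, 2 of 7 animals had more Hs3st2 and Phyhipl in the loaded RV than any sham. Phyhipl was at 1.20 and 1.89 CPM in PAB-H replicates 4 and 5 and between 0.13 and 0.33 CPM in the other 5, against a highest sham of 0.40 CPM. Hs3st2 was at 0.38 and 0.68 CPM in the same replicates and at or below 0.13 CPM in the others, against a highest sham of 0.15 CPM. These libraries had 6 and 13 reads of Hs3st2. The log2 fold changes were 1.76 ± 0.87 for Phyhipl and 1.93 ± 1.44 for Hs3st2 (edgeR adjusted p = 1.00, with 0.426% of all genes higher at an unadjusted p under 0.05), and those of Crtac1 (0.58 ± 1.01) and Pcp4 (-0.59 ± 0.67) were within their error. Without the 3 doubtful animals Phyhipl was at 1.78 and Hs3st2 at 1.84 in RV. In LV and Spt the log2 fold changes of the 4 genes upon PAB-H lay between -0.50 and 0.44, and between -0.71 and 0.41 without those animals. The comparisons of AOB-H and PAB-H share the Sham-H animals.

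**Figure D3:**
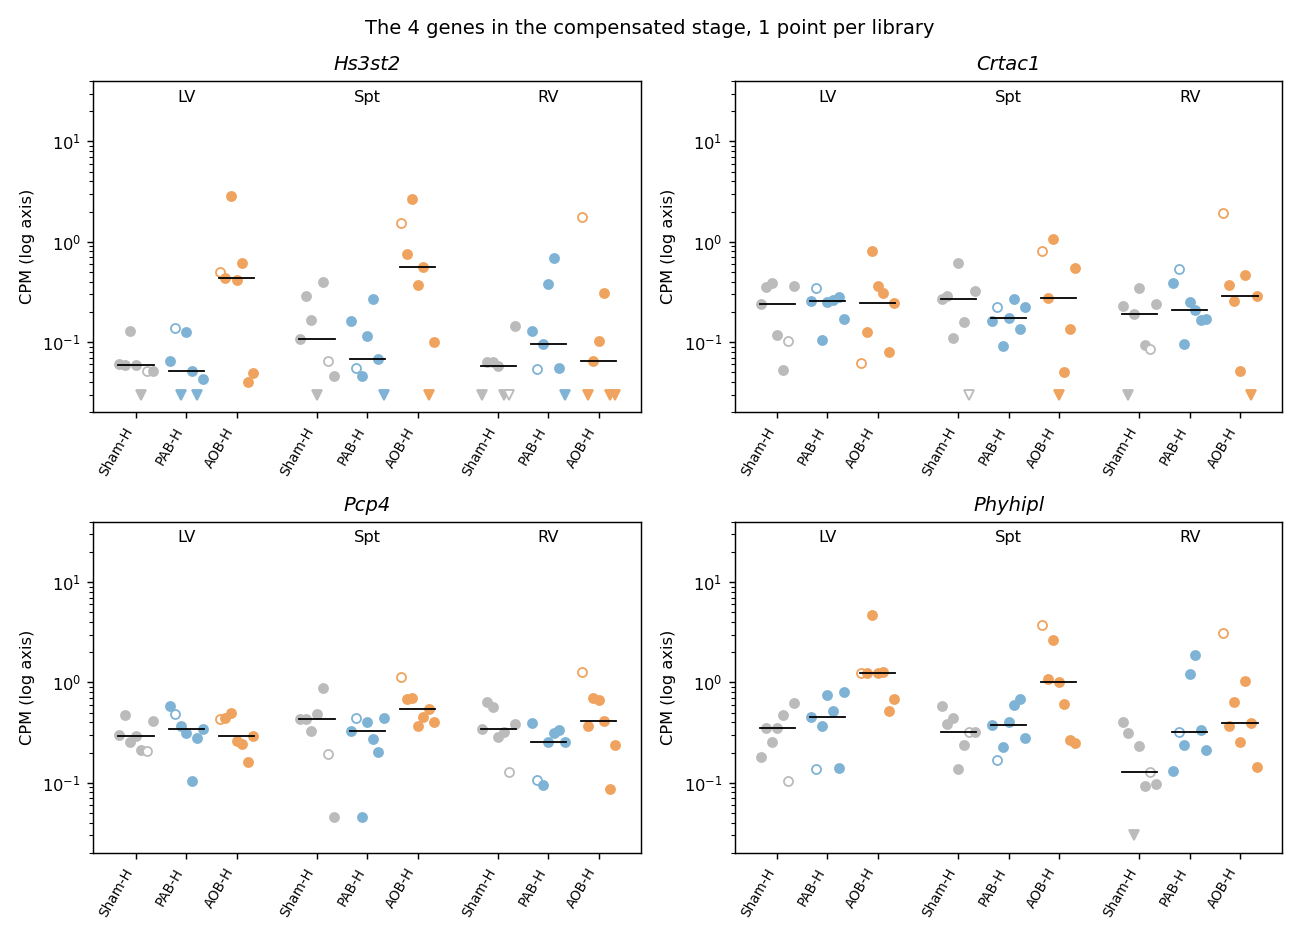
CPM of each gene in every library of the compensated stage (log axis), by chamber and condition; open symbols are the 3 animals of doubtful ventricle labels, triangles at the lower edge are libraries with 0 reads, and black lines are medians. AOB-H lies above Sham-H for Phyhipl in LV in 6 of 7 animals, and the highest AOB-H library in RV is the open symbol of replicate 1 for each gene.

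Ordered by mean level, AOB-F was the highest of the 7 conditions for each gene in each chamber except Phyhipl in RV, where PAB-F (2.47 ± 2.04 CPM, SD, n = 3) stood above AOB-F (2.23 ± 2.49 CPM, n = 4). AOB-F against Sham-LF in LV and Spt chose the genes, so the first place of AOB-F in those chambers is a description only. The RV libraries of AOB-F come from the same animals. The second place was held by AOB-H for Hs3st2 in LV (0.71 ± 0.99 CPM) and for Phyhipl in LV (1.56 ± 1.41 CPM) and Spt (1.38 ± 1.33 CPM). PAB-F came second for Hs3st2, Crtac1 and Pcp4 in RV and for Hs3st2 and Crtac1 in Spt. A sham group came second for Crtac1 in LV (Sham-RF, 0.49 ± 0.11 CPM), Pcp4 in LV (Sham-LF, 0.45 ± 0.10 CPM) and Pcp4 in Spt (Sham-RF, 0.67 ± 0.19 CPM). Of the 72 neighbouring pairs of conditions in these orders, the libraries of 69 overlapped, so that the orders mostly do not separate conditions. This holds for the first place too, where only Crtac1 in LV had all AOB-F libraries above those of the second group, Sham-RF. On the FPKM scale the mean of Pcp4 in the AOB-F Spt (9.07 ± 10.1) was the highest group mean of any of the 4 genes, followed by Pcp4 in the AOB-F RV (4.14 ± 4.38) and Hs3st2 in the AOB-F LV (3.60 ± 3.43), with SDs as large as the means.

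No difference between shams by age or chamber passed the test. Older shams differed from Sham-H by log2 values between -0.45 (Pcp4 in LV) and 1.71 (Hs3st2 in RV) over the 4 genes and 3 chambers, with a lowest edgeR adjusted p of 0.696. Of all genes 0.0171% (LV), 0.0688% (Spt) and 0.0682% (RV) were higher in older shams at the adjusted threshold. Between chambers of Sham-H the log2 differences lay between -0.87 (Phyhipl, RV minus LV) and 1.52 (Hs3st2, Spt minus RV), with a lowest edgeR adjusted p of 0.835. Of all 11924 genes tested there, 0%, 0.0923% and 0.772% passed in either direction for RV against LV, Spt against LV and Spt against RV. With standard errors of 0.58 to 1.67, back-calculated from the test, differences of several-fold between shams could have been missed at these counts.

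Whether the genes rose in the same animals was examined by library. A library was called high in a gene when its CPM lay above every sham of its chamber, young or old. Of the 63 libraries of banded animals, 11 were high in all 4 genes, 9 of the 21 failing and 2 of the 42 compensated ones. Of these, 7 were AOB-F (replicates 1, 2 and 4 in LV, 1 and 3 in Spt, 1 and 4 in RV) and 2 were PAB-F (replicates 2 and 3 in RV). The other 2 were the Spt and RV libraries of AOB-H replicate 1, the animal of doubtful ventricle labels. No PAB-H library was high in all 4, and 14 of 21 were high in none. The share of all genes that are high in a library by this rule was not computed, so these counts are a description only. The count for AOB-F in LV and Spt follows from the choice of the genes, while the RV libraries and those of PAB did not enter it. The RV libraries of AOB-F are from the animals that chose the genes, and so are not independent of that choice.

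Nppb, a natriuretic peptide gene, stood high in the same libraries. Nppb was at 685, 104, 47.0 and 839 CPM in AOB-F replicates 1 to 4 in RV, against 64.0 to 145 CPM in Sham-LF, and so was high in replicates 1 and 4, as the 4 genes were. In PAB-F it was at 171, 862 and 583 CPM in RV against 89.4 and 46.2 CPM in Sham-RF. Nppa in RV was at 5896, 1377, 96.1 and 8383 CPM in AOB-F against 76.3 to 1214 CPM in Sham-LF, and at 283, 5619 and 5210 CPM in PAB-F against 51.1 and 47.8 CPM in Sham-RF, with the highest levels again in AOB-F replicates 1 and 4 and PAB-F replicates 2 and 3. In Spt of AOB-F Nppb was at 1355, 687, 1158.2 and 574 CPM, with replicates 1 and 3 highest, again as for the 4 genes. The change of the high pair from replicates 1 and 4 in both ventricles to 1 and 3 in Spt was therefore shared by Nppb. Whether the Spt libraries of AOB-F belong to the animals named in their labels was not tested. In PAB-F replicate 3, log2(CPM + 0.1) in RV exceeded the mean of the shams by 3.18 for Nppb, but by 0.68 for Crtac1 and 0.47 for Pcp4.

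**Figure D4:**
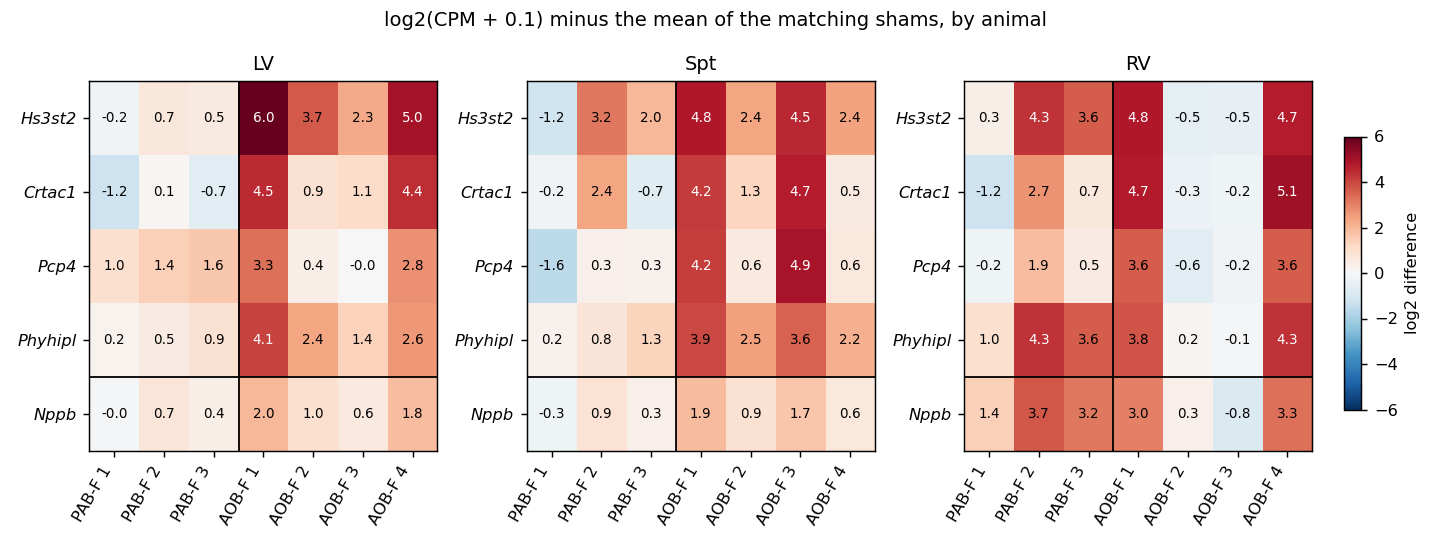
Difference of log2(CPM + 0.1) from the mean of the matching shams, by gene (rows) and failing animal (columns, with replicate number), in LV, Spt and RV; red is higher and blue lower than the shams. The RV columns of AOB-F replicates 1 and 4 and PAB-F replicates 2 and 3 are red for each gene and for Nppb (palest for Pcp4 in PAB-F replicate 3, at 0.47), and in Spt the darkest columns are AOB-F replicates 1 and 3.

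Correlations were computed over the 26 animals outside AOB-F and Sham-LF, with the mean of each condition subtracted from log2 CPM, which leaves out the animals that chose the genes and any difference between conditions. Values of a pair within a chamber come from the same library and share its depth. There were 42 relations, 18 of pairs of genes within a chamber, 12 of a gene with itself in another chamber and 12 of a gene with Nppb. How often such relations of other genes are positive or pass was not computed. The counts of relations are therefore a description and do not set the 4 genes apart from others. All 18 pairs were positive, with Pearson's r between 0.19 and 0.74 and a median of 0.46, and 7 passed an adjusted permutation p of 0.05 by Pearson's r and 5 by Spearman's rho. All 7 involved Hs3st2. The strongest was Hs3st2 with Phyhipl, in RV (r = 0.74, permutation p = 0.00061, adjusted 0.0097, and rho = 0.65, p = 0.0028, adjusted 0.0335) and in Spt (r = 0.71, permutation p = 0.00069, adjusted 0.0097, and rho = 0.68, p = 0.0013, adjusted 0.0277). Without the 2 animals farthest from the median on the first gene, r was still positive for all 18 pairs but 0 passed, with r between 0.14 and 0.68. Of the 7 passing pairs, r then fell most for Hs3st2 with Crtac1 in RV, from 0.61 to 0.20, and least for Hs3st2 with Phyhipl in Spt, from 0.71 to 0.68 (adjusted permutation p = 0.091 over 24 animals), while Hs3st2 with Phyhipl in RV was at 0.53. Without the 3 animals of doubtful ventricle labels 4 pairs passed by Pearson's r and 0 by Spearman's rho. With the mean of each library series also subtracted, 2 pairs passed by Pearson's r and 0 by Spearman's rho.

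Between chambers of an animal the agreement was weaker. Of 12 relations 3 passed by Pearson's r and 1 by Spearman's rho, the highest being Hs3st2 in LV with Hs3st2 in Spt (r = 0.63, permutation p = 0.0043, adjusted 0.0306, and rho = 0.53, adjusted 0.0497), and none passed without the 2 farthest animals. With Nppb in the same chamber all 12 relations were positive and 9 passed by Pearson's r and 3 by Spearman's rho. The closest was Phyhipl in RV (r = 0.75, permutation p = 5e-05, adjusted 0.0021, and rho = 0.79, adjusted 0.00042), where the unadjusted p of rho, 1e-05, was the smallest that 100000 permutations can give. Pcp4 in LV (r = 0.34) and RV (r = 0.35) and Phyhipl in LV (r = 0.33) did not pass with Nppb. Without the 2 farthest animals 0 of the 12 passed by Pearson's r and 1 by Spearman's rho.

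**Figure D5:**
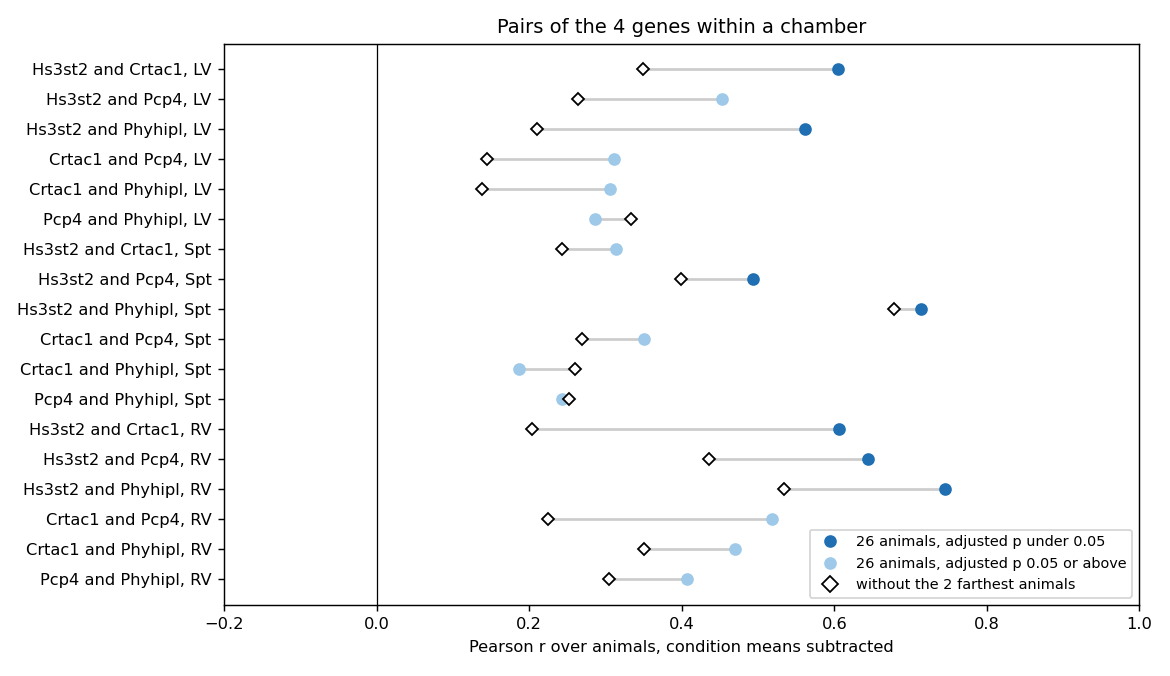
Pearson's r for the 18 pairs of genes within a chamber over 26 animals outside AOB-F and Sham-LF, with condition means subtracted (circles, dark where the adjusted permutation p is under 0.05), and without the 2 animals farthest from the median (diamonds). All circles and diamonds lie above 0, 7 circles are dark, and leaving out 2 animals lowered r for most pairs.

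Genes with the most similar pattern were found by Pearson's r of mean log2 CPM over the 21 groups of condition and chamber, among 11575 genes, as a description. Nearest to Hs3st2 were Tgfb2 (r = 0.98), which encodes a growth factor of the transforming growth factor beta family, Dupd1 (0.96), a dual-specificity phosphatase gene, and Phgr1 (0.96). In the RV, Tgfb2 was at 38.2 ± 31.5 CPM in AOB-F and 43.5 ± 21.8 CPM in PAB-F against 13.2 ± 1.48 and 14.9 ± 0.29 CPM in the shams. Nearest to Phyhipl were Maoa (0.96), which encodes monoamine oxidase A, Rhoq (0.96), a small GTPase gene, and Cdhr1 (0.95), a cadherin gene known from photoreceptors. Maoa in RV was at 641 ± 592 CPM in AOB-F and 669 ± 302 CPM in PAB-F against 180 ± 47.5 and 146 ± 51.5 CPM. Nearest to Crtac1 were Fam229a (0.94), Zyx (0.93), the gene of the adhesion protein zyxin, and Nabp1 (0.92), and nearest to Pcp4 were Tmem63c (0.89), Gclc (0.88), a gene of glutathione synthesis, and Tnip2 (0.88). Among the 4 genes themselves r lay between 0.67 (Pcp4 with Phyhipl) and 0.88 (Hs3st2 with Phyhipl). The 21 groups include those of AOB-F and Sham-LF that chose the genes, so positive r among the 4 follows in part from that choice. For each of the 4 genes the 3 nearest genes named here were nearer than any of the other 3 members. In RV the log2 fold changes of Tgfb2 were 1.54 ± 0.50 upon AOB-F and 1.54 ± 0.60 upon PAB-F (edgeR adjusted p = 0.328 and 0.53), and those of Maoa 1.83 ± 0.63 and 2.19 ± 0.78 (adjusted p = 0.336 and 0.524).

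Genes of the pathways around the 4 genes were examined in RV, and 0 of any list passed the adjusted edgeR test upon either kind of failure. Of the 7 heparan sulfate 3-O-sulfotransferase genes listed, 3 passed the filter on low counts, and beside Hs3st2 these were Hs3st1 and Hs3st5, whose log2 fold changes upon AOB-F were 0.06 ± 0.20 and -0.03 ± 0.26. Of the 17 tested genes of heparan sulfate chain synthesis and editing, 0 passed the adjusted threshold, with a median log2 fold change of 0.23 upon AOB-F and 0.03 upon PAB-F against 0.03 and 0.00 over all genes. Sulf2, an extracellular sulfatase gene, had the lowest p upon AOB-F (0.38 ± 0.14, edgeR adjusted p = 0.347) and Hs6st1 upon PAB-F (0.54 ± 0.23, adjusted p = 0.545). Of the 10 tested heparan sulfate core proteins 0 passed, with Sdc3 (0.38 ± 0.15) and Gpc1 (0.64 ± 0.25) lowest in p upon AOB-F and PAB-F. Among the 7 tested genes of the Nogo receptor system 0 passed, and the median was 0.06 upon AOB-F and 0.18 upon PAB-F.

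Of the 8 tested genes of cartilage-type matrix listed beside Crtac1, 6 had a positive log2 fold change upon each kind of failure, with a median of 0.87 in both comparisons, and 0 passed the adjusted threshold. At an unadjusted p under 0.05, 4 of the 8 were higher upon AOB-F and 3 upon PAB-F, against 6.91% and 4% of all genes. Thbs4, the gene of thrombospondin 4, was at 3.77 ± 1.20 upon AOB-F and 4.06 ± 1.47 upon PAB-F (edgeR adjusted p = 0.328 and 0.524), and Cilp, a cartilage matrix gene, at 2.37 ± 0.71 and 1.76 ± 0.82. Of the 23 genes of calmodulin and its regulators, 12 and 15 were positive, with medians of 0.04 and 0.18, and 0 passed. Calm2 had the lowest p upon AOB-F (-0.30 ± 0.08) and Rcan1, a calcineurin inhibitor gene, upon PAB-F (1.32 ± 0.50). Of the 7 tested genes of phytanic acid breakdown 0 passed, with a median of 0.02 in both comparisons, and Slc27a2 had the lowest p in both, at 1.29 ± 0.51 upon AOB-F and -0.84 ± 0.51 upon PAB-F. All 8 load response genes were positive in both, with medians of 1.56 and 1.42, and Xirp2 had the lowest p (2.06 ± 0.55 and 1.82 ± 0.66). Of all genes 54.2% were positive upon AOB-F and 50.2% upon PAB-F.

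Markers of other cell types were summed per library. The 8 measured cardiomyocyte markers summed to 67536, 92960, 95340 and 75151 CPM in AOB-F replicates 1 to 4 in RV and to 91928 to 107385 CPM in Sham-LF, so that the tissue carried its defining genes in every library and less of them in replicates 1 and 4. The 9 genes of the Purkinje and conduction system, which do not include Pcp4, summed to 193, 116, 117 and 184 CPM in AOB-F replicates 1 to 4 in RV, against 113 to 118 CPM in Sham-LF. They were thus higher in the libraries in which Pcp4 was higher. In PAB-F the sum was 104, 120 and 130 CPM against 134 and 115 CPM, without such a difference. Cacna1g, a calcium channel gene, had the lowest p of this list upon AOB-F in RV (2.34 ± 0.48, edgeR adjusted p = 0.328), and 6 of 8 tested markers had a positive log2 fold change, with a median of 0.21. The 12 measured neuron markers summed to 24.3 to 33.1 CPM in AOB-F and 18.6 to 28.6 CPM in Sham-LF in RV, and Chat was at 0 in each of these libraries. The 6 Schwann cell markers were lower in sum in AOB-F replicates 1 and 4 (24.2 and 20.9 CPM) than in replicates 2 and 3 (65.7 and 50.7 CPM). The 6 atrial markers summed in RV to 1005 CPM in AOB-F replicate 2, which was high in none of the 4 genes, against 286 to 1183 CPM in Sham-LF, and to 2056 CPM in PAB-F replicate 3, which was high in all 4, against 202 and 262 CPM in Sham-RF. The part of any of these cells in the levels of the 4 genes was not tested.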

How the data were processed

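The authors prepared polyadenylated RNA libraries of LV, Spt and RV of 33 rats, sequenced single-end reads, trimmed adapters (Trim Galore), aligned the reads (STAR) to Rnor6.0 with UCSC annotation and counted reads per gene with featureCounts, reads with multiple overlaps left out. The strand setting of the counting is not given in the sources used here, so that overlapping or antisense transcripts cannot be told apart. As deposited, counts are raw whole numbers per gene. The deposited normalized counts are a signal, the counts divided by size factors that the authors computed with DESeq2. The deposited FPKM values also take gene length into account. Depth was 12057180 to 24197244 counts per library (median 17391374), which limits precision for genes with a few reads.

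The counts of each chamber (33 libraries, 7 conditions, no covariate) were fitted with edgeR 4.0.16 in R 4.3.3, with TMM normalization, the default low-count filter and the quasi-likelihood test, and adjusted by Benjamini-Hochberg over all genes tested in that chamber (threshold 0.05). A fit of all 99 libraries gave the chamber differences in Sham-H. The SE beside an edgeR log2 fold change was back-calculated, as its absolute value divided by the square root of the F of the test. Such an SE is unreliable where the log2 fold change is near 0. Correlations were Pearson's r and Spearman's rho with two-sided permutation p (100000 permutations of animals within condition) on log2 CPM with a prior count of 1. Alternatives were DESeq2 1.42.0, other filters and samples, library series, the replicate block and leaving out libraries. The scripts were tested on simulated data with known changes.

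The 4 genes and all gene lists were chosen with earlier results of these data known. Beside the 4 genes, the text names the 3 genes nearest to each, from each pathway list the genes past the threshold or else the 1 with the lowest p, and Nppa, Nppb and Myl7 as references. Hs3st1, Hs3st5, Thbs4 and Cilp in a second comparison, and the marker genes named, were chosen after their values were seen. Groups came from the sample labels. For RV samples 1 label field names the left ventricle, and title and source were followed. The p-values measure the spread between these animals. No genome of the authors' build was used here, so the coordinates given are those of RefSeq in GRCr8.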

Additional observations from a re-analysis of the deposited data

Results flagged for a closer look

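In 6 of 48 groups of 4 to 10 libraries checked, the highest library lay far from the others by Dixon's criterion. For normal values in independent groups, chance alone passes it in about 1 in 20 groups. Here CPM at few reads are skewed and the groups of different genes share libraries, so that share does not apply. All 6 groups were AOB-H. In LV, replicate 3 stood out with 4.69 CPM of Phyhipl (next highest 1.282), 2.89 CPM of Hs3st2 (next 0.611) and 0.817 CPM of Crtac1 (next 0.365). In RV, replicate 1 stood out with 3.14 CPM of Phyhipl (next 1.03), 1.76 CPM of Hs3st2 (next 0.310) and 1.95 CPM of Crtac1 (next 0.465). Replicate 3 had 811 CPM of Nppb in LV, the highest of AOB-H, and replicate 1 had 1049.95 CPM of Nppb in RV, likewise the highest, in an animal of doubtful ventricle labels. The part of these in the levels was not tested.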

How the results depend on the processing

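Of 661 fitted values recomputed with another setting that left out no single replicate, 646 were kept, 14 reversed and 1 passed the threshold anew. Of 984 values with 1 replicate left out, 939 were kept. Kept means the same direction and side of the threshold, or the same direction only where an adjusted p was missing. For AOB-F in LV and Spt, which chose the genes, it means the same direction and a shift under the SD of the AOB-F libraries. No tested value passed in the main fit, so none could lose a call. The large differences of the 4 genes in RV upon AOB-F and of Hs3st2 and Phyhipl upon PAB-F kept their direction throughout. Each rested on 2 high animals of its group, and no setting left out both, so a reversal was hardly possible. Phyhipl upon AOB-H in Spt passed anew at 1.97 with DESeq2's Wald test, which called 1 gene of 4 there against 0 by edgeR, and at 2.10 (edgeR) without AOB-H replicate 6, in a range of 1.46 to 2.12 over replicates left out, with 0 to 1 calls. The shares of all genes called in these fits are not given here, so the calls are a description only.

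Without the 3 doubtful animals Pcp4 was at -0.0828 in LV and -0.0644 in RV upon AOB-H, Crtac1 at -0.19 in LV upon PAB-H and Phyhipl at -0.0598 in Spt minus LV. With library series as covariate Phyhipl in older shams was at 0.0160 in Spt. Within series 3, Pcp4 was at 0.0807 upon PAB-H and at -0.15 for the stage difference of PAB in Spt, and within series 2 in RV Crtac1 was at -0.17 upon PAB-H and Phyhipl at 0.40 in older shams. DESeq2's Wald test gave 0.0160 for Pcp4 in Spt minus RV. The cause was not tested.

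With the replicate block the AOB-F minus PAB-F response of Hs3st2 in RV was -1.50, older shams were at -0.33 for Hs3st2 in Spt and at -0.0076 for Pcp4 in RV, and the stage difference of PAB for Pcp4 in Spt was -0.0497. Upon AOB-F in RV the block gave 3.60, 3.52, 2.48 and 3.05 for Hs3st2, Crtac1, Pcp4 and Phyhipl, upon PAB-F 5.10, 2.52, 1.37 and 4.95, and it changed no call. Deviations of same-numbered animals correlated in part. With Sham-H the correlation was -0.08 to 0.71 (LV) and -0.03 to 0.76 (RV) for AOB-H and 0.02 to 0.70 (LV) and 0.01 to 0.60 (RV) for PAB-H, whereas it was -0.19 to 0.21 in Spt for both, and -0.29 to 0.09 for AOB-F with Sham-LF in RV. In no comparison with 3 or more pairs was every pair above 0.1, so the numbers were not taken as a pairing.

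With 1 replicate left out in turn, the ranges that crossed 0 were, for Hs3st2, -0.19 to 1.19 (AOB-F minus PAB-F, RV), -0.32 to 0.21 (PAB-H, LV) and -0.12 to 0.69 (older shams, Spt). For Crtac1 they were -0.63 to 1.88 (PAB-F, Spt), -0.21 to 0.50 (AOB-H, LV), -0.14 to 0.20 (PAB-H, LV), -0.27 to 0.45 (Spt minus LV), and for the stage difference of PAB -0.17 to 2.34 in Spt and -0.46 to 1.71 in RV. For Pcp4 they were -0.39 to 0.30 (PAB-F, Spt), -0.0513 to 0.21 (AOB-H, LV), -0.0714 to 0.61 (stage, Spt), -0.0395 to 0.63 (Spt minus LV) and -0.31 to 0.24 (Spt minus RV). For Phyhipl they were -1.55 to 0.22 (AOB-F minus PAB-F, RV), -0.0147 to 0.45 (stage, LV), -0.0669 to 0.27 (PAB-H, Spt), -0.79 to 0.0861 (older shams, RV) and -0.18 to 0.35 (Spt minus LV).

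The counts of passing correlations depended most on the animals. By Pearson's r and Spearman's rho, pairs of genes numbered 7 and 5, relations between chambers 3 and 1, and relations with Nppb 9 and 3. Without the 2 farthest animals they were 0 and 0, 0 and 0, and 0 and 1. Without the 3 doubtful animals they were 4 and 0, 1 and 0, and 3 and 1. With series means subtracted they were 2 and 0, 0 and 0, and 3 and 2. With a prior count of 5, relations between chambers were 2 and 2 and those with Nppb 9 and 6, and with DESeq2 size factors relations between chambers were 3 and 2.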
